A study of Mus musculus with 12 samples.

Results

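The Zfp symbols of the mouse name zinc finger proteins, most of them with tandem C2H2 fingers, and the genes described here are those with a Zfp symbol and a number that were expressed in these cells. Of 358 such genes in a table of 24391 (Zfp42 and Zfp352 were set aside by the rule), 287 had a mean of at least 5 CPM (the count over the library's total, scaled so that a library sums to 1000000) over the 12 libraries and 71 fell below. The genes were thus chosen by their CPM, and their presence among expressed genes is not a result. The lowest inside were Zfp629 at 5.17, Zfp691 at 5.13 and Zfp119a at 5.05, and the nearest outside were Zfp3 at 4.92, Zfp583 at 4.85 and Zfp286 at 4.83. For 5 of the 287 the mean rests on their highest group: without it Zfp608 would average 2.20 CPM, and Zfp429, Zfp629, Zfp691 and Zfp119a between 4.61 and 4.94.

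The RNA came from 4 female mouse embryonic stem cell (mESC) lines from a cross of C57BL/6J-129/SvJ with Mus musculus castaneus, each with Rs26+/CreERT, a Cre recombinase that 4-hydroxytamoxifen (OHT) switches on. A pair of lines was Rif1+/+ and the other pair Rif1F/F, in which Cre removes Rif1, a gene of replication timing and heterochromatin. Each line gave 1 library of mESC before OHT, 1 of mESC after 2 days of OHT and 1 of embryoid bodies (EB) differentiated for 2 days after OHT, so each of the 6 groups holds 2 libraries. The culture medium held serum, 2 inhibitors, of MEK and of GSK3, and leukemia inhibitory factor. The titles of the Rif1F/F libraries before OHT carry both a KO and a WT tag, and they are called Rif1F/F before OHT here. Genotypes are compared as 2 lines against 2, so a genotype difference and a difference between lines cannot be told apart. The p-values measure the spread between the 2 libraries of a group, estimated over the 6 groups together. They do not measure how further lines of a genotype would vary. The 3 conditions sat on 3 different flow cells, per the labels, so flow cell and condition also cannot be told apart.

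Libraries held 28600870 to 64808897 counts. Rif1 stood at 1567 and 1802 CPM in Rif1+/+ and 1204 and 1157 in Rif1F/F mESC before OHT, at 1511 and 1442 against 719 and 654 after it, and at 1354 and 1308 against 806 and 861 in EB. It was thus lower in the Rif1F/F lines in every condition, including before Cre was switched on, and the files do not show which exons the remaining counts come from. The 8 mESC markers summed to 4994 to 5282 CPM in Rif1+/+ and 6143 to 6428 in Rif1F/F mESC before OHT, to 5660.3 to 5829.5 and 6127 to 6284 after it, and to 2121 to 2311 in EB, with none at 0. The 6 markers of early EB (formative epiblast) summed to 281 to 288 CPM in Rif1+/+ and 206 to 218 in Rif1F/F mESC before OHT, to 302 to 322 and 217 to 228 after it, and to 2592 to 2625 and 1425 to 1444 in EB, none of them at 0. The 9 two-cell-like markers summed to at most 1.33 CPM in 6 mESC libraries, 8.41 and 8.86 in Rif1F/F mESC after OHT, 9.89 and 11.7 in Rif1+/+ EB and 262 to 297 in Rif1F/F EB, with Tcstv1 and Tcstv3 at 0 throughout. The 10 fibroblast markers summed to 46.3 to 120.2 CPM, most of it Col5a1, while Postn, Lum, Prrx1 and Twist2 reached at most 0.35 CPM.

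C2H2 fingers each read a few bases of DNA, and a row of them can read a long site. Many mouse Zfp proteins also carry a KRAB box, which recruits the corepressor KAP1 (Trim28) and through it the H3K9 methyltransferase Setdb1, heterochromatin proteins and DNA methyltransferases. KRAB zinc fingers silence retroelements and protect imprints in embryonic stem cells, and many lie side by side in clusters built by gene duplication. A search of the annotated transcripts' longest reading frames for a 16-letter KRAB pattern (at least 9 letters present) and for C2H2 fingers put 150 of the 287 in a KRAB class, with a median of 12 finger matches, and 131 in a class with fingers and no KRAB match, with a median of 9. The other 6 had no C2H2 match: Zfp185, Zfp365, Zfp330, Zfp839, Zfp36 (tristetraprolin, an mRNA decay factor with another kind of finger) and Zfp750. The largest number of finger matches was 37. Over all 21877 annotated protein-coding genes, 307 held the KRAB pattern, 13 of them without a finger match. The pattern can miss KRAB genes. Zfp708, listed below among silencers that act by KRAB fingers, had no KRAB match, so the class without a match may hold others.

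A sequence feature that the rule did not use was more frequent in the promoters of these genes than in others, though most lacked it. The 5 promoters shown were picked because they hold it, from the genes with the highest mean CPM in each class. RefSeq promoters (GRCm38.p6) were found for 240 of the 287, and the 250 bases before each start were searched on both strands for 10 motifs. The motif of ACTACA and TCCC with 2 bases of any kind between them, known as the binding site of Zfp143, was present in 45 of 240 (18.8%), in 26 of 133 KRAB genes (19.5%) and in 19 of 107 others (17.8%). Among the 17251 other protein-coding genes with a promoter it was present in 434 (2.52%). Of its 47 matches, 38 lay within 100 bases of the start, 12 in the forward and 35 in the reverse orientation. The 3 KRAB promoters below come first, Zfp317 at chr9:19621841-19622090 (+ strand), Zfp65 at chr13:67729174-67729423 (- strand) and Zfp729a at chr13:67637782-67638031 (- strand), and then 2 of genes without a KRAB match, Zfp260 at chr7:30094826-30095075 (+ strand) and Zfp180 at chr7:24081647-24081896 (+ strand). They are written 5′ to 3′ on the gene's strand, up to the base before the start, with the motif or its reverse complement (GGGA and TGTAGT) in capitals.
Zfp317: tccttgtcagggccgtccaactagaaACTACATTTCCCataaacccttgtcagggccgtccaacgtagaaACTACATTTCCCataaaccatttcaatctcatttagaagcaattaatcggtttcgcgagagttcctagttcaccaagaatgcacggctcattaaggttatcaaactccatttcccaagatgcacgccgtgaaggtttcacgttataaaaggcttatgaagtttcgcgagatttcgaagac
Zfp65: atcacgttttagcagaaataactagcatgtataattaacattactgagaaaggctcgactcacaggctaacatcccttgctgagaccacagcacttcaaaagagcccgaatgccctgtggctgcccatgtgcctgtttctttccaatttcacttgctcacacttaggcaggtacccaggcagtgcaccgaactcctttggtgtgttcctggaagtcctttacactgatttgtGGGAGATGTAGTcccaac
Zfp729a: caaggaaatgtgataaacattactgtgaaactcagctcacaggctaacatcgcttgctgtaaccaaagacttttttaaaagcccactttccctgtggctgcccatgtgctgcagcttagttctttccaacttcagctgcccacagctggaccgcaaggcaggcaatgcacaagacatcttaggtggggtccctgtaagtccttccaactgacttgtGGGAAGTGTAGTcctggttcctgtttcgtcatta
Zfp260: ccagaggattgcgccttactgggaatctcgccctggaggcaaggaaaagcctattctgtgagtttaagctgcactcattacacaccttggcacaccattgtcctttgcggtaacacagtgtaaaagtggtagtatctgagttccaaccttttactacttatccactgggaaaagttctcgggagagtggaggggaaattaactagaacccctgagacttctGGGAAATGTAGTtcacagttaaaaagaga
Zfp180: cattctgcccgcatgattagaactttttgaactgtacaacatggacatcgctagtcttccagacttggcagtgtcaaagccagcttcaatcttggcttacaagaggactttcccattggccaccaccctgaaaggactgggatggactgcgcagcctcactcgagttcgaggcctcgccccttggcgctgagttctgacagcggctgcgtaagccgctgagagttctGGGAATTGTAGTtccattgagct
Zfp317 holds 2 forward copies of the motif, while the other 4 promoters hold 1 reverse copy that ends 6 to 22 bases before the start.

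The other motifs were less frequent or closer to their frequency elsewhere. The ETS motif CCGGAAGT was present in 8.75% of the 240 promoters and 4.20% of the other protein-coding promoters, the NRF1 motif in 3.75% and 1.17%, and the CRE TGACGTCA in 5% and 2.16%. The GC box GGGCGG was present in 42.9% and 45.8%, and here the classes differed in frequency, at 32.3% of KRAB genes and 56.1% of the others. The CCAAT box was present in 52.1% against 39.3%, the Zfp57 motif TGCCGC in 14.2% against 11.6% and the E box CACGTG in 7.92% against 7.61%. The YY1 motif was present in 1.25% against 0.835% and the TATA box in 8.33% against 13.8%. Promoters of one cluster are copies of each other in part, so they are not independent. Among the 45 genes with the Zfp143 motif 18 were higher (40%) and 3 lower (6.67%) in Rif1F/F before OHT. The 195 without it gave 75 (38.5%) and 10 (5.13%), and all genes with at least 5 CPM gave 26.5% and 17.3%. After OHT the counts were 6 and 11 (13.3% and 24.4%) against 37 and 26 (19% and 13.3%). Of all genes with at least 5 CPM, 22.5% were higher and 22.3% lower. Between genotypes in EB the counts were 5 and 9 (11.1% and 20%) against 20 and 41 (10.3% and 21%), where the shares were 23.3% and 20.8%. In Rif1+/+ EB against mESC the counts were 8 and 15 (17.8% and 33.3%) against 71 and 52 (36.4% and 26.7%). There 29.5% of all genes with at least 5 CPM were higher and 38.1% lower. In Rif1F/F after OHT against before they were 5 and 19 (11.1% and 42.2%) against 30 and 54 (15.4% and 27.7%). Of all genes with at least 5 CPM, 27.4% were higher there and 22.3% lower. The other comparisons are not given. Whether genes with and without the motif differ was not tested.

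Most of these genes are expressed at low levels. The median of the mean CPM was 21.6, with 30 genes at 100 or more and 54 under 10, and KRAB genes had the lower median (17.5 against 30.5). Zfp106, an RNA-binding protein, was highest at a mean of 842 CPM. Per kilobase of annotated exon, Zfp106 led at 80.8 CPM, followed by Zfp57 at 67.0, Zfp207 (BuGZ, a spindle and kinetochore factor) at 53.4 and Zfp568 at 49.8. Zfp57 protects imprints and Zfp568 silences a placental promoter of Igf2, and both are KRAB genes. Between the highest and the lowest group mean, the median gene moved by 0.74 on the log2(CPM + 0.01) scale, 74 genes by more than 1 and 12 by more than 2. The widest range was that of Zfp608, at 7.25, followed by Zfp711 at 2.69 and Zfp738 at 2.44. A test of any difference among the 6 groups called 269 of 287, where it called 92.8% of all 17115 genes tested and 96.2% of those with a mean of at least 5 CPM.

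In sum the 287 genes took 1.08% to 1.29% of a library's counts. The summed CPM was 10799 and 11928 in Rif1+/+ mESC before OHT and 12799.9 and 12672 in Rif1F/F, with the 2 Rif1+/+ libraries on either side of 11363. After OHT it was 12301 and 12371 in Rif1+/+ and 12878 and 12419 in Rif1F/F mESC, and in EB 12289 and 11913 against 11820.2 and 12008. The KRAB genes alone summed to 3871 and 4499.8 in Rif1+/+ before OHT and to 5208 and 5158 in Rif1F/F, with a gap between the genotypes wider than that between either pair of lines. After OHT the KRAB sums came closer, at 4600.4 and 4510.2 against 4849.7 and 4650.4, and in EB they overlapped, at 4636 and 4393 against 4373 and 4456. In bulk RNA, fewer cells of a type and less RNA per cell cannot be told apart.

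**Figure D1:**
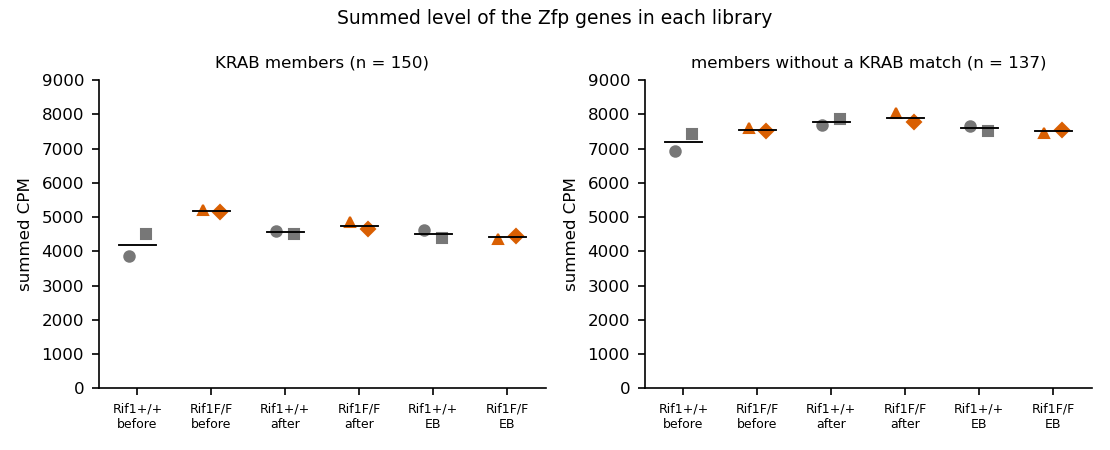
Summed CPM of the 150 KRAB genes (left) and the 137 genes without a KRAB match (right) in each of the 12 libraries; points are libraries, with a marker shape for each line, and bars are means of 2. The KRAB sums of the Rif1F/F lines before OHT, 5208 and 5158, lie above all other libraries, and that of 1 Rif1+/+ library before OHT, 3871, lies below all others.

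Before OHT, when both genotypes still carry Rif1, more Zfp genes were higher than lower in the Rif1F/F lines. In Rif1F/F against Rif1+/+ mESC, 110 of 287 were higher and 17 lower (edgeR quasi-likelihood test, Benjamini-Hochberg adjusted p under 0.05 over all genes). The libraries of the groups did not overlap in any of these 127, as in 99.7% of all called genes. Of all genes tested, 19.9% were higher and 17.5% lower, and of those with a mean of at least 5 CPM 26.5% and 17.3%. The KRAB class held most of the higher calls, with 73 of 150 higher and 5 lower and a median log2 fold change of 0.28. Among the 137 others 37 were higher and 12 lower. Their median was 0.13, while the median of all genes with at least 5 CPM was 0.05. The changes were small, and only 9 members were higher and 1 lower by more than 2-fold. The count leans on 1 library: without Rif1+/+ replicate 1 before OHT, which had the lowest Zfp sum, 64 members were higher (22.3%) and 11 lower (3.83%), with 44 and 4 in the KRAB class. In that fit 18.9% of all genes with at least 5 CPM were higher and 12.8% lower, so the share of higher members was closer to the background. Without Rif1F/F replicate 4, 75 were higher (26.1%) and 10 lower (3.48%), where 18.5% and 14.1% of genes with at least 5 CPM were. The mESC and early EB markers also differed before OHT: 5 of 8 mESC markers were higher and none lower, with a median of 0.25, and 3 of 6 early EB markers were lower and none higher, with a median of -0.43. Their part in the Zfp difference was not tested.

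The genes named here had the largest differences before OHT among those without overlap between libraries, so their separation was fixed by that choice. Zfp553 stood at 39.7 and 47.3 CPM in the Rif1+/+ lines and 158 and 175 in the Rif1F/F lines (log2 fold change 1.97 ± 0.09, adjusted p = 3.6e-11). Exons of Sept1 overlap it on the other strand, so reads of Sept1 could be among its counts. The KRAB gene Zfp945 was at 11.9 and 14.8 against 38.6 and 37.2 CPM (1.53 ± 0.10, adjusted p = 3.2e-09), and the KRAB gene Zfp248 at 11.3 and 10.4 against 27.98 and 26.2 (1.34 ± 0.09, adjusted p = 8.5e-09). In all 3 genes the 2 lines of a genotype lay far closer to each other than to the other genotype. Zfp827, which is known to bring the NuRD complex to chromatin, was at 7.31 and 8.91 against 18.4 and 20.4 CPM (1.29 ± 0.12, adjusted p = 3.1e-07). Zfp213 was at 3.71 and 4.40 against 7.61 and 10.1 CPM and Zfp839 at 16.6 and 17.9 against 35.9 and 35.8, higher by 1.16 and 1.08 on the log2 scale. Zfp534 (1.29) and Zfp97 (1.27) were also higher, but 68.4% and 81.3% of the 50-base words of their exons occur in another gene, so the authors' counting could have split reads between copies.

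Few members were lower before OHT. The X-linked Zfp711, a promoter-binding partner of the demethylase Phf8, was the lowest, at 21.2 and 23.8 CPM in Rif1+/+ and 8.46 and 8.17 in Rif1F/F mESC (log2 fold change -1.41 ± 0.11, adjusted p = 2.9e-08). The X-linked Zfp280c was at 101 and 106 against 59.4 and 60.3 CPM (-0.76 ± 0.07, adjusted p = 2.0e-07). Zfp658, Zfp931, Zfp334, Zfp960, Zfp341 and Zfp423 were lower by 0.43 to 0.70 on the log2 scale. Of these, Zfp931 and Zfp960 lost the call without Rif1+/+ replicate 2, Zfp423 without replicate 1, and Zfp341 without replicate 1 or without Rif1F/F replicate 4.

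**Figure D2:**
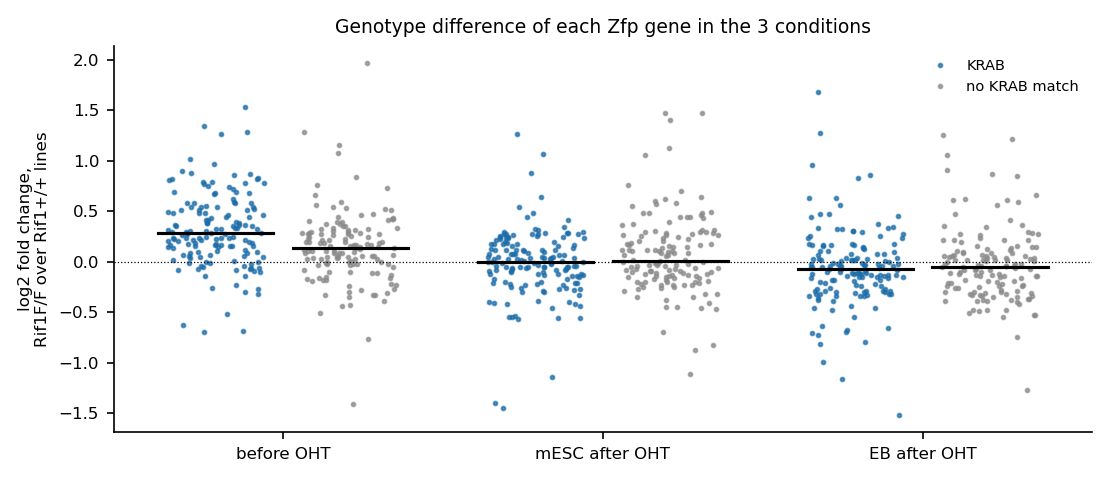
Log2 fold change of each of the 287 Zfp genes, Rif1F/F over Rif1+/+ lines, in mESC before OHT, mESC after OHT and EB; blue points are the 150 KRAB genes, grey points the 137 others, and bars are medians. The KRAB median is 0.28 before OHT, -0.01 after it and -0.07 in EB.

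KRAB genes lie in clusters, and the number of members called higher before OHT varied between them. Counting members with at most 2 other genes between them, 111 of the 287 fell into 20 runs of 3 or more neighbours, and 69 lay on chromosome 7, 40 on chromosome 17 and 31 on chromosome 13. In the longest run, 17 members on chromosome 13 from Zfp595 to Zfp273, 11 were higher in Rif1F/F mESC before OHT and none lower, with a median log2 fold change of 0.43. Zfp953 (0.87), Zfp738 (0.78), Zfp493 (0.73), Zfp65 (0.68) and Zfp729a (0.58) were the highest there, while Zfp459, in the same run, stood at -0.14 with no call. On chromosome 17, 6 of the 8 KRAB genes from Zfp871 to Zfp563 were higher, with a median of 0.55, among them Zfp799 (0.90), Zfp871 (0.81) and Zfp763 (0.79). Of the 10 from Zfp54 to Zfp943, also on chromosome 17, 5 were higher. By contrast none of the 7 members from Zfp786 to Zfp746 on chromosome 6 passed the test in either direction, although 6 of them are KRAB genes, and their median was -0.01. On chromosome 7, 5 of 14 members from Zfp84 to Zfp146 were higher and 1, Zfp940, was lower. Neighbours in a run can share sequence, and differences of strain origin between the hybrid lines were not tested.

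**Figure D3:**
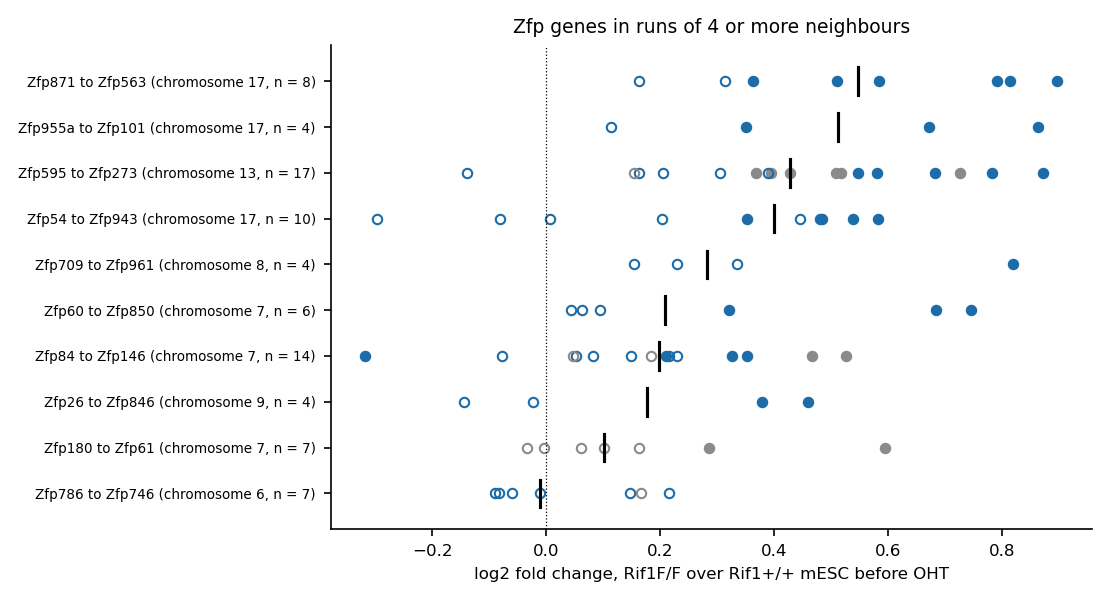
Log2 fold change, Rif1F/F over Rif1+/+ mESC before OHT, of the Zfp genes in the 10 runs of 4 or more neighbours; filled points passed the test, blue points are KRAB genes, grey points others, and bars are medians of a run. The run medians go from -0.01 on chromosome 6 to 0.55 on chromosome 17.

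After 2 days of OHT the lean towards Rif1F/F was no longer there. In Rif1F/F against Rif1+/+ mESC, 50 members were higher and 46 lower, and their median was -0.003, where 19.8% of all genes were higher and 18.6% lower (22.5% and 22.3% with at least 5 CPM). KRAB genes gave 18 and 21 of 150, and the others 32 and 25 of 137, so 17.4% and 16% of members were called, below the background. Beside them 3 of 8 mESC markers were higher and none lower, and 4 of 6 early EB markers were lower and none higher, whose part was not tested. Fewer members were called in either direction without Rif1F/F replicate 3 or 4 or without Rif1+/+ replicate 1. The shares of all genes in those fits are not given. Single genes kept large differences. Zfp553 was at 59.2 and 66.9 CPM in Rif1+/+ and 176 and 188 in Rif1F/F (1.47 ± 0.09, adjusted p = 1.2e-09), and Zfp827 at 8.69 and 9.57 and 23.5 and 26.5 (1.40 ± 0.12, adjusted p = 7.6e-08). Zfp771 was at 1.94 and 2.66 and 6.71 and 6.48 CPM (1.47 ± 0.22, adjusted p = 6.5e-05), and Zfp248 was higher by 1.27, Zfp213 by 1.13 and Zfp945 by 1.06. Zfp707 and Zfp628 were higher by 0.88 and 0.76, and the latter lost its call without Rif1+/+ replicate 1 or Rif1F/F replicate 4.

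The members that were lower in Rif1F/F than in Rif1+/+ mESC after OHT included 2 that share most of their exon sequence with a copy. Zfp600 stood at 17.004 and 18.1 CPM in Rif1+/+ and 5.69 and 7.64 in Rif1F/F mESC (-1.45 ± 0.15, adjusted p = 1.5e-06), and Zfp960 at 26.3 and 27.4 against 9.52 and 11.5 (-1.40 ± 0.12, adjusted p = 1.5e-07). Of their 50-base words, 81.2% occur in Rex2 and 82.7% in Zfp97, so both are uncertain. Zfp597 has no such copy and was at 57.03 and 51.8 in Rif1+/+ against 26.3 and 26.4 CPM in Rif1F/F (-1.11 ± 0.09, adjusted p = 3.4e-08). It was also lower in Rif1F/F before OHT, and 3 genes on the other strand overlap its exons, so its counts are uncertain too. Zfp473, a factor of histone pre-mRNA processing, was at 35.2 and 34.1 against 22.5 and 22.1 CPM (-0.70 ± 0.09, adjusted p = 1.7e-05). Zfp931 had a fitted value of -1.14, with 23.3% of its words shared, and Zfp750, Zfp280c and Zfp940 had fitted values of -0.87, -0.83 and -0.57.

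The change of the genotype difference from before to after OHT was tested in the same model. This change subtracts the comparison before OHT given above, from the same libraries, so its counts are not separate from that result. The change was called in 4 members as higher after OHT and in 53 as lower. Of all genes, 4.07% and 3.79% were called, and 4.13% and 5.73% of those with at least 5 CPM. KRAB genes made up 39 of the 53, with none higher and a median of -0.34, while the median of all 287 was -0.23. In the 17-member run on chromosome 13, where most members were higher before OHT, all 17 values were below 0 and 8 passed the test. The largest downward changes were those of Zfp600 (-1.21), Zfp473 (-1.07), Zfp534 (-1.06), Zfp936 (-0.97) and Zfp808 (-0.89). Zfp808, a KRAB gene with 28.2% of its words shared, was at 14.7 and 18.6 CPM in Rif1+/+ and 27.5 and 27.95 in Rif1F/F before OHT, and at 17.4 and 16.5 and 15.4 and 17.02 after it, so that the groups were apart before and overlapped after. The 4 that changed upwards were Zfp711 (1.24), Zfp395 (0.72), Zfp423 (0.66) and Zfp296 (0.53). The lower count was sensitive to single libraries: it was 13, of which 9 KRAB, without Rif1+/+ replicate 1 before OHT (4.53% of members, where 1.68% of genes with at least 5 CPM were lower in that fit), and 19 to 23 without Rif1F/F replicate 4 before OHT, Rif1+/+ replicate 1 after it or either Rif1F/F library after it. The higher count went from 1 without Rif1F/F replicate 4, before or after OHT, to 16 without Rif1+/+ replicate 2 after it, and was 2 without Rif1+/+ replicate 1 before it.

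The conditions were also compared within each genotype. From before to after OHT, 107 members were higher and 34 lower in Rif1+/+ mESC, where 24.9% and 24.2% of all genes and 34.8% and 20.4% of those with at least 5 CPM were called. In the Rif1F/F lines 45 were higher and 83 lower, where 22.1% and 21.5% of all genes were (27.4% and 22.3%), and KRAB genes gave 11 and 53 of them. The count of 107 was smaller without Rif1+/+ replicate 1 before OHT, and the 45 without Rif1F/F replicate 3 before OHT. The 83 were fewer without Rif1F/F replicate 4 after OHT. The shares of all genes in those fits are not given. In Rif1+/+ the KRAB gene Zfp936 went from 22.2 and 34.8 CPM to 72.9 and 62.04 (1.34 ± 0.15, adjusted p = 4.5e-06), and Zfp459, Zfp518b, Zfp566 and Zfp951 rose by 1.02 to 1.05 on the log2 scale. Zfp36 fell in both genotypes, from 19.6 and 21.3 to 11.3 and 8.92 CPM and from 21.1 and 20.1 to 9.12 and 9.32, and so did Zfp367. Zfp629 was at 5.97 and 7.46 CPM in Rif1+/+ and 9.14 and 6.86 in Rif1F/F before OHT and at 2.39 and 2.87 and 3.25 and 4.38 after it, but it reached the limit of 5 CPM only through Rif1F/F before OHT, so its fall from there was fixed in part by the choice of genes. Zfp771 and Zfp346 had fitted values of -1.08 and -0.75 in Rif1+/+. In Rif1F/F, Zfp112, Zfp296, Zfp111, Zfp711 and Zfp213 rose by 0.75 to 1.05 on the log2 scale. Since these libraries come from different flow cells, the effect of OHT itself cannot be told apart from that of the run.

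**Figure D4:**
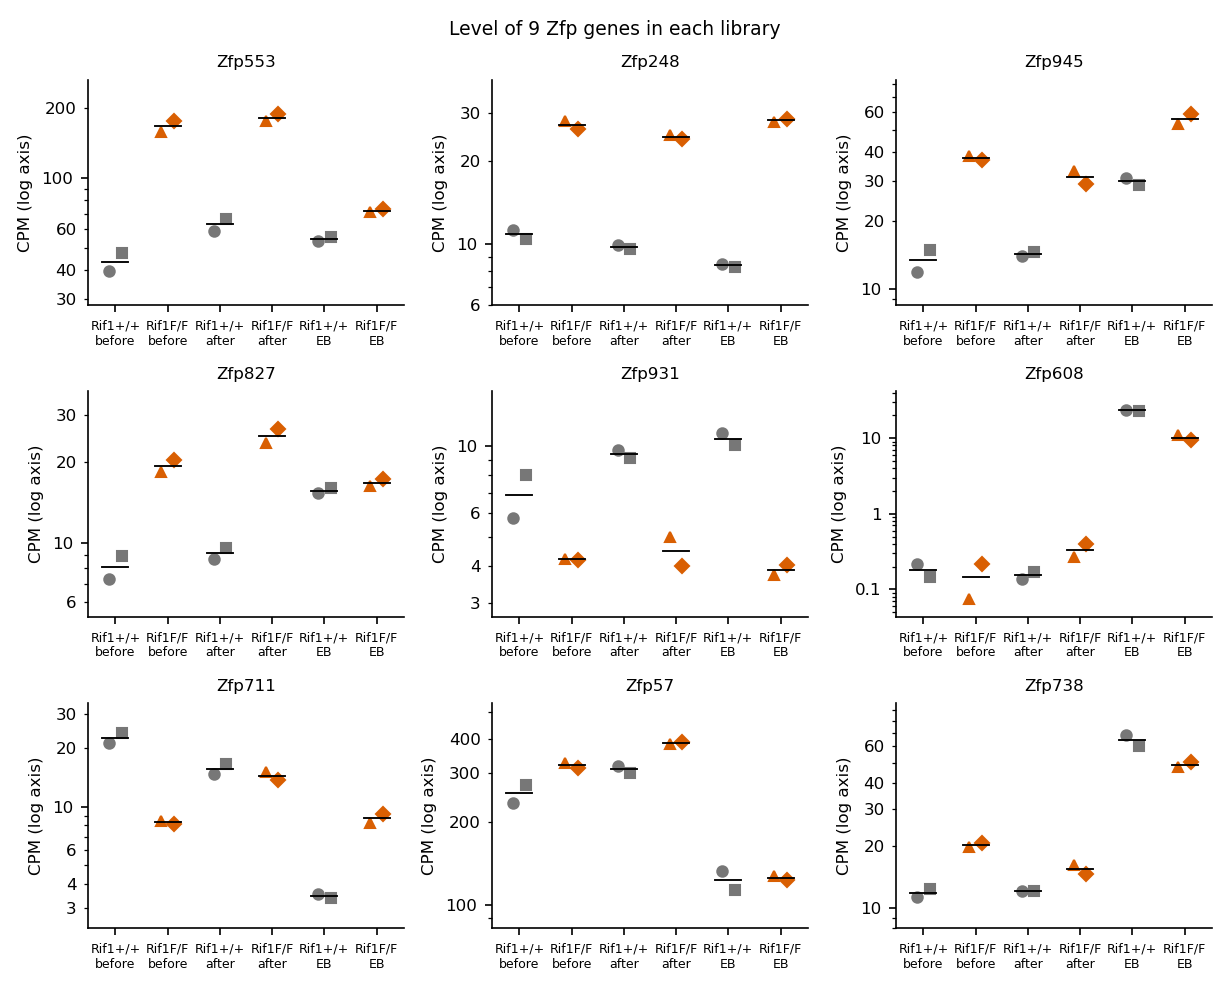
CPM of 9 Zfp genes in each of the 12 libraries on log axes; points are libraries, with a marker shape for each line, grey for Rif1+/+ and orange for Rif1F/F, and bars are means of 2. Zfp248 separates the genotypes in every condition, Zfp553 and Zfp827 in mESC far more than in EB, and Zfp608 appears in EB.

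In EB more members were lower than higher in the Rif1F/F lines, 61 (21.3%) against 37 (12.9%). Of all genes, 20.7% were higher and 19.7% lower (23.3% and 20.8% with at least 5 CPM). The share of lower members was thus near that of other genes, while the share of higher members was below it. KRAB genes gave 15 higher (10%) and 29 lower (19.3%) of 150, and the median of the 287 was -0.06. The lower count was smaller without Rif1F/F replicate 3 or without Rif1+/+ replicate 1, and the shares of all genes in those fits are not given. Zfp248 was the highest, at 8.50 and 8.29 CPM in Rif1+/+ and 27.7 and 28.6 in Rif1F/F EB (1.68 ± 0.10, adjusted p = 4.6e-10). Zfp711 stood at 3.57 and 3.39 against 8.24 and 9.16 CPM (1.26 ± 0.13, adjusted p = 5.5e-07), the opposite of its difference before OHT. Zfp112 was at 4.46 and 4.78 against 10.6 and 11.9 CPM (1.22 ± 0.18, adjusted p = 4.0e-05). No overlap between libraries was a condition for naming these genes. Zfp97 (1.28), Zfp422 (1.06), Zfp40 (0.96), Zfp704 (0.91) and Zfp213 (0.87) were also higher.

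The lower members in EB included genes that were higher in EB than in mESC. Zfp608, a paralogue of the transcription regulator Zfp609, was at 23.8 and 23.1 CPM in Rif1+/+ and 10.96 and 9.37 in Rif1F/F EB. It is listed among the 287 only through its level in Rif1+/+ EB, so its fitted value of -1.27 is a description. Zfp532, known from complexes with Zmynd8, was at 248 and 229.9 against 149.6 and 147 CPM (-0.75 ± 0.06, adjusted p = 7.5e-08). Both lay beside the lower sum of early EB markers in Rif1F/F EB given above, whose part in these differences was not tested. Zfp931 was at 11.1 and 10.1 against 3.71 and 4.02 CPM (-1.52 ± 0.17, adjusted p = 1.4e-06). Zfp961, a KRAB gene, was at 90.5 and 77.5 against 49.3 and 50.5 (-0.81 ± 0.10, adjusted p = 4.7e-06). The fitted values of Zfp600, Zfp960, Zfp808 and Zfp52 were -1.16, -0.99, -0.80 and -0.73.

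The genotype difference in EB was set against those in mESC. Against mESC after OHT it was higher in 31 members and lower in 38 (14.8% and 13.7% of all genes, 18.7% and 16.4% with at least 5 CPM). The higher count was smaller without Rif1F/F mESC replicate 3 or 4, either Rif1+/+ EB library or Rif1F/F EB replicate 4. The lower count was smaller without Rif1F/F mESC replicate 4 or Rif1F/F EB replicate 4. The shares of all genes in those fits are not given. Zfp827 lost its difference, with 15.3 and 15.98 CPM in Rif1+/+ and 16.3 and 17.2 in Rif1F/F EB and a change of -1.37 ± 0.16, adjusted p = 1.3e-05. Zfp553 narrowed to 53.7 and 55.9 against 71.3 and 73.5 CPM (change -1.14 ± 0.12, adjusted p = 4.4e-06). Zfp771 (-1.24) and Zfp689 (-1.0002) also changed downwards, and the former lost its call without Rif1+/+ EB replicate 2. Zfp608 had a value of -2.32, which the choice of genes fixed in part. Zfp711 (1.43), Zfp51 (0.9959), Zfp800 (0.98), Zfp112 (0.82) and Zfp597 (0.81) changed upwards. Against mESC before OHT the difference in EB was higher in 23 members and lower in 115 (15.5% and 15.7% of all genes, 16.8% and 20.7% with at least 5 CPM). The KRAB class held 7 and 71 of them, and the median of members was -0.30. The lower calls were fewer without Rif1+/+ replicate 1 before OHT or without Rif1F/F EB replicate 3. This difference also subtracts the comparison before OHT, so it is not separate from that result. Zfp799, in the chromosome 17 run from Zfp871, went from 18.5 and 21.7 against 35.7 and 37.9 CPM before OHT to 43.4 and 40.2 against 34.6 and 33.5 in EB (-1.25 ± 0.13, adjusted p = 1.6e-06).

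A smaller set differed between the lines in the same direction in all 3 conditions, which share no library but share the lines. It held 9 members that were higher in Rif1F/F (Zfp553, Zfp704, Zfp945, Zfp955a, Zfp839, Zfp248, Zfp954, Zfp97 and Zfp213) and 7 that were lower (Zfp664, Zfp280c, Zfp597, Zfp960, Zfp940, Zfp931 and Zfp658). These are 3.14% and 2.44% of members, and the same count over all genes tested was 4.97% and 4.52%. Zfp945 is an example: it was at 11.9 and 14.8 against 38.6 and 37.2 CPM before OHT, 13.9 and 14.5 against 33.01 and 28.98 after it and 30.9 and 28.8 against 53.6 and 59.3 in EB. Both genotypes were higher in EB than in mESC, and the log2 fold change between the lines went from 1.53 before OHT to 1.06 after it and 0.86 in EB. For Zfp955a, Zfp97, Zfp960 and Zfp931, between 23.3% and 82.7% of the exon words are shared with another gene.

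The EB were also set against mESC within each genotype, on different flow cells. In Rif1+/+ EB against Rif1+/+ mESC after OHT, 91 were higher and 81 lower, where 32.5% and 29.8% of all genes were called (29.5% and 38.1% with at least 5 CPM). In Rif1F/F 57 were higher and 81 lower, where 31.4% and 27.6% of all genes were (29.2% and 34.2%). In both genotypes the share of members called lay below that of all genes. Zfp608 was almost silent in mESC, with 3 to 13 counts in each of the 8 libraries, and had 268 to 969 counts in EB. Since it passed the limit of 5 CPM only through Rif1+/+ EB, its rise was fixed by the choice of genes, and its log2 fold changes of 7.21 in Rif1+/+ and 4.89 in Rif1F/F are descriptions. The KRAB gene Zfp738 rose from 12.2 and 12.03 to 68.3 and 60.6 CPM (2.39 ± 0.09, adjusted p = 3.6e-13) and, in Rif1F/F, from 16.2 and 14.6 to 47.6 and 50.5 (1.65 ± 0.09, adjusted p = 7.0e-11). Zfp423, a cofactor of BMP-activated SMADs and of EBF, rose from 10.5 and 11.2 to 41.5 and 38.4 CPM (1.87 ± 0.10, adjusted p = 2.9e-11). Zfp532 and Zfp946 were higher by 1.62 and 1.44 in Rif1+/+, and Zfp365 and Zfp750 by 1.13 and 1.06 in Rif1F/F.

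Zfp57 was among the members that fell most. It stood at 320.1 and 302 CPM in Rif1+/+ mESC and 133 and 114 in EB (-1.35 ± 0.08, adjusted p = 2.4e-10), and at 383 and 390.5 and 128 and 123 in Rif1F/F (-1.65 ± 0.08, adjusted p = 2.1e-11). The EB levels of the genotypes overlapped. In Rif1+/+, Zfp800 fell from 38.3 and 38.6 to 15.1 and 13.4 CPM (-1.45 ± 0.10, adjusted p = 8.7e-10) and Zfp704 from 107 and 107 to 41.8 and 39.7 (-1.41 ± 0.09, adjusted p = 5.7e-10), and Zfp59, with 52.4% of its words shared, had a fitted value of -1.25. In Rif1F/F the lowest fitted values after Zfp57 were those of Zfp553 (-1.35), Zfp30 (-1.30), Zfp775 (-1.12) and Zfp518b (-1.01).

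The study concerns the choice of the X chromosome that is silenced in differentiating female cells, and 6 members are X-linked: Zfp275, Zfp185, Zfp280c, Zfp182, Zfp449 and Zfp711. All 6 fell in Rif1+/+ EB against Rif1+/+ mESC, with fitted values from -0.27 (Zfp275) to -2.18 (Zfp711). Zfp449 went from 26.5 and 27.2 CPM to 13.1 and 12.9 (-1.06 ± 0.08, adjusted p = 6.6e-09), Zfp182 from 31.2 and 32.97 to 22.6 and 20.9 (-0.58 ± 0.09, adjusted p = 4.2e-05) and Zfp185 from 71.04 and 76.7 to 52.8 and 59.5 (-0.41 ± 0.08, adjusted p = 2.0e-04). In Rif1F/F, Zfp711, Zfp449 and Zfp280c fell, with fitted values of -0.75, -0.37 and -0.24, and the other 3 had values between -0.08 and 0.03 with no call. In EB, Zfp185, Zfp182, Zfp449 and Zfp711 were higher in Rif1F/F than in Rif1+/+ and Zfp280c was lower (-0.54). The genotype difference in EB exceeded that in mESC after OHT in 5 of the 6, by 0.28 (Zfp280c) to 1.43 (Zfp711), and Zfp275 was not called (0.19 ± 0.09, adjusted p = 0.15). Over the 640 X-linked genes tested (matched by symbol), 41.2% were lower and 29.1% higher in Rif1+/+ EB against mESC, 44.2% were higher and 23% lower in Rif1F/F EB against mESC, unlike these members, 46.6% were higher and 7.66% lower in Rif1F/F against Rif1+/+ EB, and the difference of differences was called higher in 36.4% and lower in 5%. Before OHT 15.6% of the X-linked genes were higher and 29.1% lower in Rif1F/F.

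**Figure D5:**
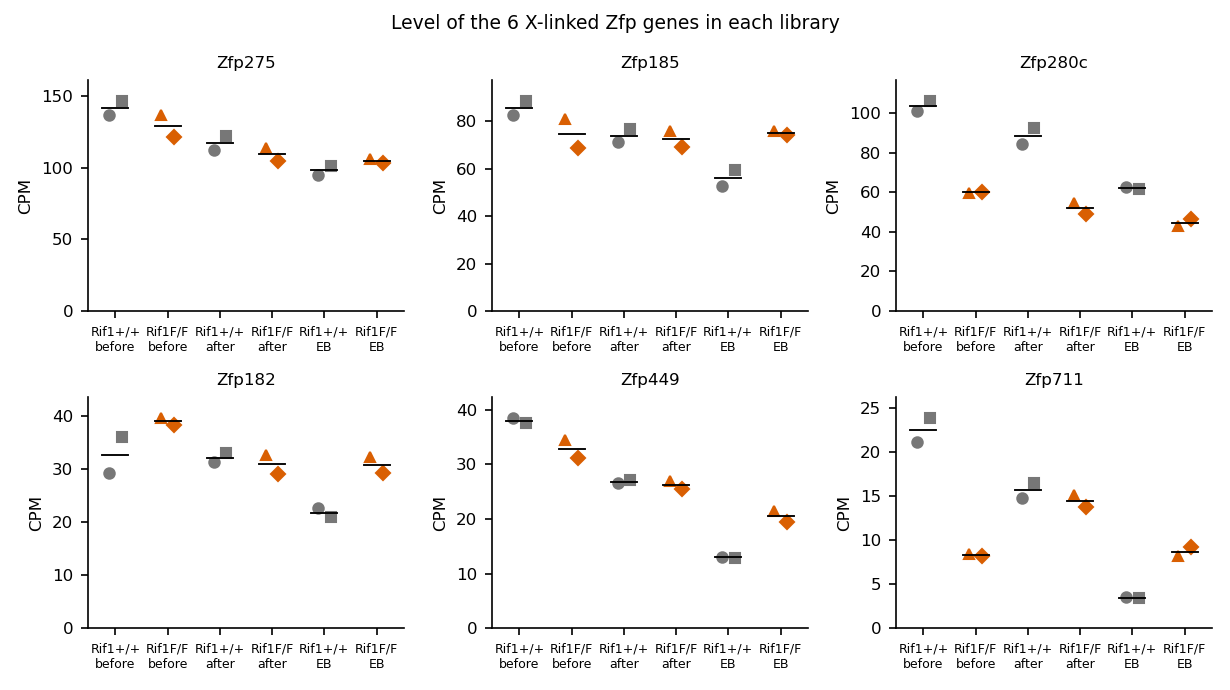
CPM of the 6 X-linked Zfp genes in each of the 12 libraries; points are libraries, with a marker shape for each line, grey for Rif1+/+ and orange for Rif1F/F, and bars are means of 2. In EB the Rif1F/F libraries of Zfp185, Zfp182, Zfp449 and Zfp711 lie above the Rif1+/+ libraries, and those of Zfp280c below them.

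Members with known roles were read by function. The 2 imprint protectors, Zfp57 and Zfp445, were both higher in the Rif1F/F lines before OHT and after it, and neither was called in EB. Both are KRAB genes, of which 48.7% were higher before OHT and 12% after it. Of all genes with at least 5 CPM, 26.5% and 22.5% were. In EB 29.3% of KRAB genes and 44.1% of genes with at least 5 CPM were called in either direction. Zfp445 was at 112 and 129 CPM against 175 and 169.95 before OHT (0.54 ± 0.07, adjusted p = 1.4e-05), 134 and 125 against 165 and 157 after it (0.26 ± 0.07, adjusted p = 0.0091) and 149.96 and 149.8 against 155 and 156 in EB. Of the 5 members known to silence retroelements or an Igf2 promoter (Zfp809, Zfp819, Zfp932, Zfp708 and Zfp568), 3 were higher before OHT. In that comparison 26.5% of all genes with at least 5 CPM and 48.7% of the KRAB class were higher. Zfp809, which silences murine leukemia viruses, was at 39.01 and 43.5 against 55.3 and 61.2 CPM before OHT (0.52 ± 0.09, adjusted p = 1.4e-04) and at 60.4 and 56.9 against 64.5 and 68.01 after it, with no call. Zfp568 and Zfp932 were lower in Rif1F/F EB (-0.27 and -0.66). Zfp708 was lower after OHT (-0.47), but 94.9% of its words are shared with another annotated gene, and 37.0% of those of Zfp932.

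Of 8 members linked to the pluripotency network, 2 were higher and 3 lower after OHT, where 22.5% and 22.3% of all genes with at least 5 CPM were, and 2 and 2 in EB, where 23.3% and 20.8% were. Zfp296 was at 30.99 and 28.7 CPM in Rif1+/+ and 46.7 and 48.4 in Rif1F/F EB (0.61 ± 0.09, adjusted p = 3.8e-05), and Zfp281, which promotes the exit from naive pluripotency, at 181 and 161 against 134 and 138 (-0.39 ± 0.07, adjusted p = 3.9e-04). Zfp462 was lower in Rif1F/F mESC before (-0.43) and after OHT (-0.35) and had a value of 0.05 in EB, with no call. Zfp143 itself was at 59.1 to 73.3 CPM in mESC and was lower in Rif1F/F EB, at 55.6 and 57.8 against 47.5 and 49.8 (-0.28 ± 0.08, adjusted p = 0.011). Zfp207, Zfp706, Zfp217 and Zfp322a complete the list. Zfp706 fell in EB in both genotypes (-0.82 and -0.67), while Zfp207 passed none of the genotype tests in the 3 conditions.

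Of 8 members that act on RNA or ribosomes, 1 was higher and 1 lower after OHT, and 2 and 1 in EB, below or near the same shares of all genes (22.5% and 22.3%, and 23.3% and 20.8%). Zfp106 was lower after OHT, at 1048 and 982 against 898 and 877 CPM (-0.25 ± 0.07, adjusted p = 0.0072), and Zfp598, a sensor of collided ribosomes, was higher (0.32). Zfp346, which binds double-stranded RNA, and Zfp593 were higher in Rif1F/F EB (0.47 and 0.21) and Zfp638 was lower (-0.31), while Zfp622, Zfp326 and Zfp36 had no genotype call in EB. Of 14 chromatin partners with a mean of at least 5 CPM (of 17 listed), 9 were higher and 3 lower in Rif1+/+ EB against mESC, where 29.5% and 38.1% of all genes with at least 5 CPM were, and 5 and 5 in Rif1F/F, where 29.2% and 34.2% were. Between genotypes in EB 1 was higher (Zfp410, 0.21) and 5 lower: Zfp532 (-0.75), Zfp687 (-0.42), Zfp219 (-0.34), Zfp91 (-0.32) and Zfp335 (-0.30). The other 8, among them Zfp827, Zfp423, Zfp644 and Zfp609, had values between -0.05 and 0.12 there with no call.

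The corepressor side of the pathway was read from 32 genes. After OHT 2 were higher and 11 lower in Rif1F/F mESC, with no change of 2-fold, and in EB 2 were higher and 12 lower. Before OHT 4 were higher and 6 lower. Of all genes with at least 5 CPM, 22.5% were higher and 22.3% lower after OHT, 23.3% and 20.8% in EB and 26.5% and 17.3% before OHT. Trim28, which encodes KAP1, was at 2243 and 2262 CPM in Rif1+/+ and 2133 and 2047 in Rif1F/F mESC after OHT with no call, and at 2432 and 2516 against 2034 and 2150.1 in EB (log2 fold change -0.30, edgeR adjusted p = 0.0026). Setdb1 was not called in any of the 3 genotype comparisons, with values from -0.04 to 0.12. Among the DNA methyltransferases, which rose in EB, Dnmt3a was at 976 and 951 CPM in Rif1+/+ EB against 400.4 and 389.95 (-1.35) and Dnmt3b at 1181 and 1206 against 793 and 799 (-0.65). The H3K9 methyltransferase Ehmt2 was at 234 and 247 against 157 and 154 CPM in EB (-0.69). Hells, a chromatin remodeller needed for DNA methylation, was lower in all 3 conditions (-0.42, -0.64 and -0.63), and Dnmt3a and Dnmt3b are also among the early EB markers. Cbx5, which encodes a heterochromatin protein 1, and Smarcad1 were higher before OHT (0.59 and 0.50) and lower in EB (-0.19 and -0.28).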

How the data were processed

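The analysis starts from the raw counts per gene that the authors deposited for 12 libraries. The submitters' processing notes name BWA, HTSeq, DESeq2 and the mm9 build, without versions. The strand setting and the handling of reads that fit several genes are not given in the sources used here. Antisense genes (73 members overlap one) and near-identical copies (27 members share over 20% of their 50-base words) are therefore uncertain. The members with an antisense overlap include Zfp553, Zfp597, Zfp961, Zfp213, Zfp248, Zfp473, Zfp532, Zfp704, Zfp738, Zfp799 and Zfp112. CPM is the count over the library total. The members and lists were chosen with earlier results of these data known, so no list has a test of its own.

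All 17115 genes kept by filterByExpr, of 24391, were fitted in edgeR 4.0.16 (R 4.3.3) with TMM, 1 model of 6 groups and the quasi-likelihood F test, with Benjamini-Hochberg adjustment over all genes at 0.05. All 287 members passed the filter. Named genes were those with the largest called differences and no overlap between libraries (8 in each direction for the 3 genotype comparisons, 5 for the others), the highest and most variable ones and the role lists. On counts simulated from its own model, with changes larger than those of most members, the fit recovered the changed genes. Since the counts came from that model, this does not test the calls made here. Alternatives were DESeq2 1.42.0, its size factors, no filter, only the groups compared, other CPM limits, each library left out and a block for the cell line. The same number marks the same line in each condition, so the numbers pair libraries across conditions by origin, while deviations of paired libraries correlated by only -0.066 to 0.0912. With 28600870 counts or more per library, a level of 5 CPM is 143 counts or more, with a counting error of up to 8.36%. That is as large as the fitted spread between libraries (7.17%), so counting error adds to the spread of the lowest members. The limit applies to the mean of the 12 libraries. In single libraries a member can lie below 5 CPM, and its counting error is then larger. Motifs, finger and KRAB matches, chromosomes and neighbours come from the GRCm38 annotation, used for names and order only, since the files use mm9: 285 symbols matched RefSeq directly and 2 as synonyms. No gene coordinates other than those of the RefSeq promoters are printed.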

Additional observations from a re-analysis of the deposited data

Results flagged for a closer look

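The genotype difference after OHT differed from that before OHT by a test of the difference itself in 4 members upwards and 53 downwards, and among the named genes in Zfp711 (1.24), Zfp395 (0.72), Zfp423 (0.66), Zfp296 (0.53), Zfp600 (-1.21), Zfp473 (-1.07), Zfp534 (-1.06), Zfp936 (-0.97), Zfp808 (-0.89), as log2 differences. The genotype difference in EB differed from that in mESC after OHT by a test of the difference itself in 31 members upwards and 38 downwards, and among the named genes in Zfp711 (1.43), Zfp51 (0.9959), Zfp800 (0.98), Zfp112 (0.82), Zfp597 (0.81), Zfp608 (-2.32), Zfp827 (-1.37), Zfp771 (-1.24), Zfp553 (-1.14), Zfp689 (-1.0002), as log2 differences. The genotype difference in EB differed from that in mESC before OHT by a test of the difference itself in 23 members upwards and 115 downwards, and among the named genes in Zfp711 (2.67), Zfp112 (1.22), Zfp800 (1.07), Zfp551 (0.90), Zfp422 (0.87), Zfp553 (-1.63), Zfp534 (-1.61), Zfp808 (-1.56), Zfp936 (-1.36), Zfp799 (-1.25), as log2 differences. These conditions were on different flow cells, which the difference between genotypes within a flow cell does not compare directly, and their part in the changes was not tested. Both differences that involve mESC before OHT subtract the comparison made there, so they are not separate from it. No group was large enough to look for a library far from the others.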

How the results depend on the processing

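Of 247 alternative counts of members, 211 were within 1.5 times the reported one. Without a low-count filter 7 members, and with a limit of 1 CPM for membership 10, were called higher for the genotype difference after OHT minus before, in place of 4, and with only the groups compared in the fit 30 were lower, in place of 53. With TMM library sizes the summed level was 12774.03 CPM in Rif1+/+ mESC after OHT, 12384.08 in Rif1+/+ EB and 11678.65 in Rif1F/F EB. DESeq2, its size factors and a limit of 10 CPM kept every count of all members within 1.5 times.

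Leaving out 1 library at a time gave these ranges of members called, with the reported count first. After OHT, genotype: 50 higher (28 to 44) and 46 lower (23 to 48). In EB: 61 lower (34 to 48). Before OHT: 110 higher (64 to 128) and 17 lower (10 to 20). After OHT against before: 107 higher in Rif1+/+ (70 to 120), and in Rif1F/F 45 higher (28 to 46) and 83 lower (51 to 63). Genotype difference after minus before: 4 higher (1 to 16) and 53 lower (13 to 77). In EB minus mESC: 31 higher (16 to 32) and 38 lower (21 to 43). In EB minus before OHT: 115 lower (71 to 123). A lone library left in a group was assumed to vary like the other groups. The share of all genes called also fell in some of these fits, as given above for those before OHT. Whether members lost more calls than other genes was not tested.

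With the cell line as a block the pairing left the counts close: 91 higher and 76 lower for Rif1+/+ EB against mESC, 60 and 78 for Rif1F/F, 104 and 33 for Rif1+/+ after OHT against before, 46 and 75 for Rif1F/F, and 5 and 51 for the difference after OHT minus before. No count of members moved by over 1.5 times under the block, which cannot be fitted to a genotype difference within 1 condition. Of 1121 alternative values of named genes, 1095 kept direction and call and 26 lost the call, all with a library left out, and none was reversed.

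With at least 12 of the 16 KRAB letters required, an alternative chosen after seeing the data, each KRAB count was within 1.5 times the reported one.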
